A study of Canis lupus familiaris with 8 samples.

Results

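The 4 libraries described here came from MDCK I cells, an epithelial line from dog kidney, in which NFAT5 was targeted by either of 2 siRNA constructs, Nfat5-1-siRNA or Nfat5-2-siRNA. They were chosen by their group labels from 8 libraries in the series, and the question was which genes and functions differ between the constructs. All cells received siRNA at 100 nM, and the cells of both construct groups were kept in medium raised with raffinose to 500 mOsm for the last 24 h before RNA was taken. Each group held 2 libraries, replicate 1 from passage 15 and replicate 2 from passage 17, so that each construct was seen once in each passage. The other 4 libraries came from cells given Neg-siRNA, a control directed at Slc22a6, at 300 mOsm or at 500 mOsm, again in passages 15 and 17, and are used as reference levels. Gene counts summed to 46043788 and 45111348 in the Nfat5-1-siRNA libraries and to 37488252 and 39036966 in the Nfat5-2-siRNA libraries. The shallower Nfat5-2-siRNA libraries had a count in 19264 and 18618 genes, against 18217 and 18282 with Nfat5-1-siRNA. Mitochondrially encoded genes took between 4.34% and 4.65% of the counts in these 4 libraries.

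NFAT5, also known as TonEBP, is a transcription factor that accumulates in hypertonic medium and switches on genes for the uptake or synthesis of compatible osmolytes, the small organic solutes that kidney medulla cells use in place of salt. An siRNA directs the RNA-induced silencing complex to a transcript through base pairing. Different siRNAs to the same transcript share the intended target, and each can also pair in part with other transcripts, which is why several constructs are used side by side. The sequences of the constructs are not analysed here.

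The targeted gene itself did not separate the constructs at the threshold used. The gene model taken as NFAT5 had no symbol in the sources used here and was identified by its position beside NQO1 on chromosome 5 (CanFam3.1, chr5:80003598-80115099, minus strand). Its level in CPM (read counts scaled to the library total after TMM correction) was 104 and 88.1 with Nfat5-1-siRNA and 72.2 and 73.6 with Nfat5-2-siRNA, in the order passage 15 and passage 17 used throughout. The Neg-siRNA cells held 85.9 and 78.5 CPM at 500 mOsm and 21.8 and 23.6 CPM at 300 mOsm. Both Nfat5-2-siRNA libraries thus lay below both Nfat5-1-siRNA libraries, and the Nfat5-1-siRNA libraries lay above both Neg-siRNA libraries of the same osmolality. The log2 difference, Nfat5-2-siRNA minus Nfat5-1-siRNA, was -0.39 ± 0.13 (SE), with an unadjusted 95% interval from -0.65 to -0.13 and an adjusted p of 0.375 in the edgeR quasi-likelihood test. Against Neg-siRNA at 500 mOsm the log2 change was 0.22 with Nfat5-1-siRNA and -0.17 with Nfat5-2-siRNA, neither past the threshold. The NFAT5 transcript therefore gives no check of the construct labels, and group names below stand for the labels.

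The osmolyte genes, which NFAT5 is known to activate, did not pass the test between the constructs. The intervals below come from the fit of all 8 libraries, and single passages can lie outside them. SLC6A6, the taurine transporter, stood at 1363 and 1011 CPM with Nfat5-1-siRNA and at 1179 and 918 CPM with Nfat5-2-siRNA, against 3351 and 2449 CPM with Neg-siRNA at 500 mOsm. The construct difference was -0.17 ± 0.13 on the log2 scale, with a 95% interval from -0.43 to 0.08. AKR1B1, aldose reductase, which makes sorbitol, stood at 320 and 178 CPM with Nfat5-1-siRNA and at 276 and 259 CPM with Nfat5-2-siRNA, with an interval from -0.15 to 0.41. SLC6A12, the betaine transporter, stood at 787 and 410 CPM against 566 and 494 CPM, with an interval from -0.45 to 0.15. SLC5A3, the myo-inositol transporter, stood at 7.33 and 3.92 CPM against 4.47 and 3.41 CPM, with an interval from -0.92 to 0.00060. The libraries of the constructs overlapped for each of these 4 genes. For AKR1B1 and SLC6A12 the sign of the construct difference changed with the passage. AKR1B1 was lower with Nfat5-2-siRNA by 0.21 log2 units in passage 15, a difference of -0.21, and higher in passage 17, a difference of 0.55.

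Each construct's own difference from Neg-siRNA at 500 mOsm, fitted with the same 2 control libraries, was -1.29 and -1.46 for SLC6A6, -2.23 and -2.11 for AKR1B1, -1.77 and -1.92 for SLC6A12 and -1.48 and -1.95 for SLC5A3, with Nfat5-1-siRNA given first. TMEM184B, a membrane protein, was at 361 and 287 CPM with Nfat5-1-siRNA and at 364 and 299 CPM with Nfat5-2-siRNA, and its construct difference of 0.03 had an interval from -0.22 to 0.29. The other paired members of the NFAT list, RCAN1 and MAPK14, differed by -0.02 and -0.30 with adjusted p = 1 for both. AGO3, an Argonaute protein and the 1 paired member of the list of RNA interference genes, differed by -0.23 with adjusted p = 1.

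Across all genes tested, the transcriptomes of the constructs differed at this threshold. Of 19835 genes tested, 474 (2.39%) were higher and 505 (2.55%) lower with Nfat5-2-siRNA than with Nfat5-1-siRNA at an adjusted p below 0.05, together 979 genes or 4.94% of those tested. The calls were not symmetric in size, since 246 of the higher genes but 63 of the lower genes differed at least 2-fold, and the median log2 difference was 1.02 among the higher and -0.64 among the lower genes. The groups did not overlap for 949 of the 979, while this held for 46.4% of all genes tested. The number of calls depended strongly on the model. Without the passage as a block 8 genes passed (0.0403%). Of the 15388 genes left by filterByExpr, a stricter low-count filter of edgeR, 138 passed (0.897%), all of them among the 979. DESeq2, the program the study used, called 608 genes (3.07%) with the passage block and 188 without it. In all 4 fits that left out 1 construct library 165 of the 979 stayed called. Genes that also pass with filterByExpr are therefore pointed out below, and the counts under each setting are drawn in the plot of calls by setting.

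**Figure D1:**
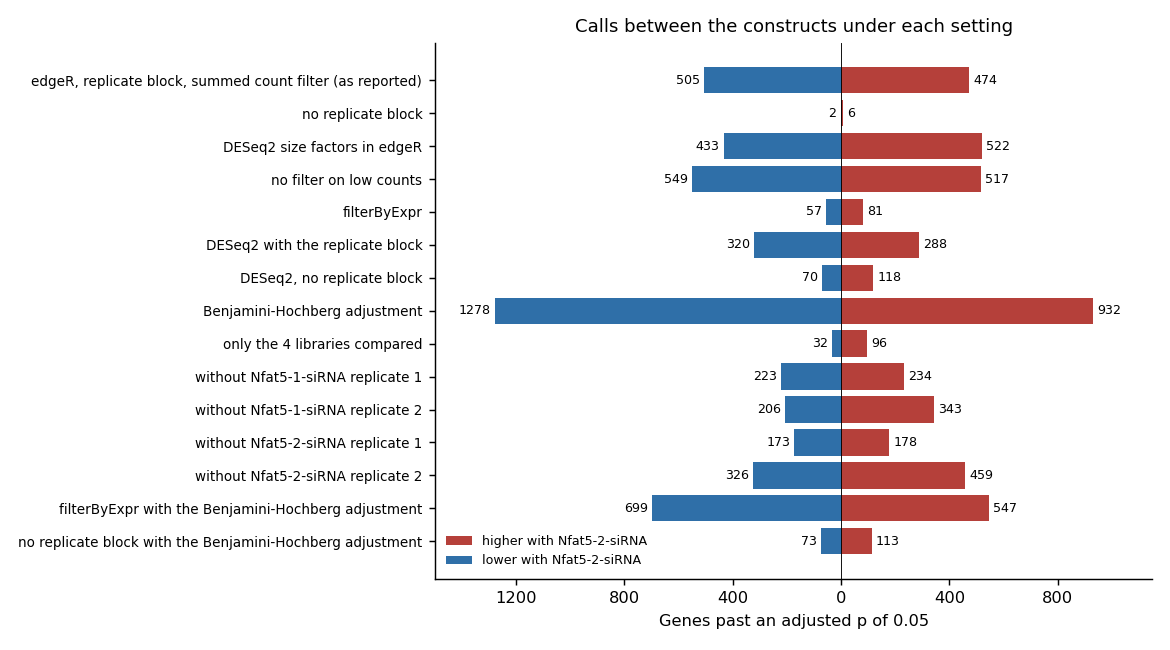
Number of genes past an adjusted p of 0.05 between the constructs (horizontal axis, counts of genes, lower with Nfat5-2-siRNA to the left and higher to the right) under each setting. The fit as reported called 474 and 505 genes, filterByExpr 81 and 57, and the fit with no replicate block 6 and 2.

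The difference recurred in library pairs that share no sample. Over the 12424 genes that averaged 1 CPM or more in the 8 libraries, the difference in passage 15 and the difference in passage 17 had the same sign in 72.1%. Across these genes, which are not independent replicates, the passage differences had a Pearson r of 0.624 and a Spearman rank correlation of 0.576. The pairs share no library, and in both the Nfat5-2-siRNA library was the shallower. The median size of the construct difference was 0.285 log2 units in passage 15 and 0.212 in passage 17. The size of the passage difference within a construct had a median of 0.153 with Nfat5-1-siRNA and 0.229 with Nfat5-2-siRNA. The construct median was thus above both passage medians in passage 15 and between them in passage 17. More than 2-fold construct differences were seen for 699 genes in passage 15 and 439 genes in passage 17, and more than 2-fold passage differences for 244 genes with Nfat5-1-siRNA and 456 genes with Nfat5-2-siRNA.

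**Figure D2:**
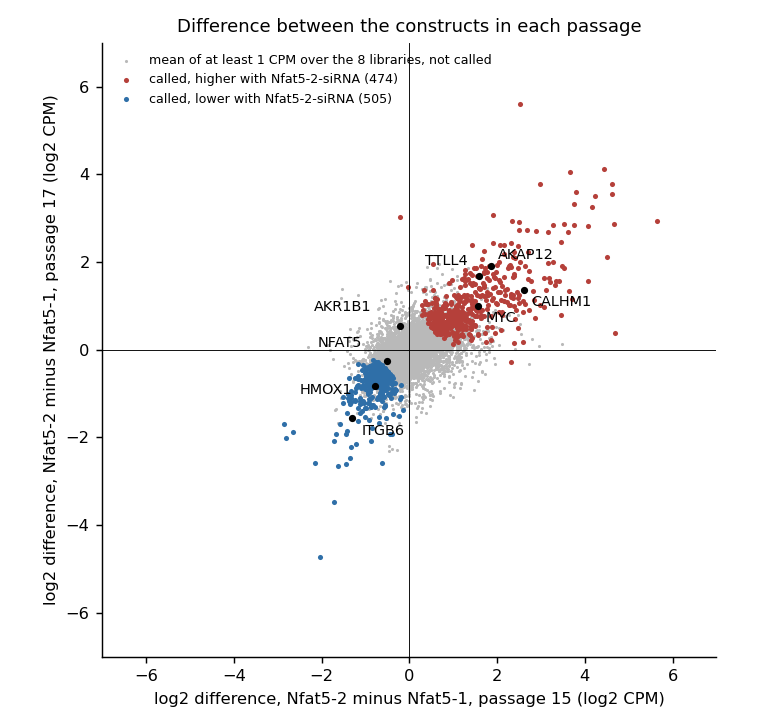
Log2 difference between the constructs in passage 15 (horizontal axis) and passage 17 (vertical axis), in log2 CPM with a prior count of 2, for each gene. Red and blue points are the 474 and 505 called genes, gray points are other genes that averaged 1 CPM or more over the 8 libraries, and black points are labelled genes, with AKR1B1 on opposite sides of 0 in the passages.

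The symbols that pair with gene identifiers came from a list of genes that the study had chosen on these same samples. The study describes the listed genes as raised by osmolality and lowered by both Nfat5 siRNAs, but many had other patterns in these counts. In Neg-siRNA cells 3441 tested genes rose and 3124 fell with osmolality, of which 2966 and 2738 had no symbol. The genes with a symbol that fell were therefore many, not a few exceptions. Among them AKAP12 lay above Neg-siRNA with both constructs, and ITGB6 is described below. Together with NFAT5, 861 genes had a symbol, and 88 of them, or 10.2%, were called between the constructs, 34 (3.95%) higher and 54 (6.27%) lower with Nfat5-2-siRNA. The remaining 891 called genes had no symbol here, so the functions below cover only the share of the difference that falls on listed genes. Because the list was made from these samples, the change of a named gene against Neg-siRNA is given as a description only.

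AKAP12 and MYC were among the named genes with the largest differences that were higher with Nfat5-2-siRNA. AKAP12, a scaffold for protein kinase A, was at 78.2 and 55.1 CPM with Nfat5-1-siRNA and at 284 and 206 CPM with Nfat5-2-siRNA. It was 3.69-fold higher, with a log2 difference of 1.88 ± 0.13 (SE) and adjusted p = 4.47e-22, and the passages gave 1.86 and 1.90. With Neg-siRNA it was at 144 and 102 CPM at 300 mOsm and at 29.1 and 19.7 CPM at 500 mOsm, so that only the Nfat5-2-siRNA libraries lay above the levels of isosmotic control cells. MYC, a transcription factor that drives growth and proliferation, was at 103 and 141 CPM with Nfat5-1-siRNA and at 306 and 283 CPM with Nfat5-2-siRNA, a 2.44-fold difference (log2 1.29 ± 0.13, adjusted p = 1.07e-12). Neg-siRNA cells had 110 and 118 CPM of MYC at 300 mOsm and 26.2 and 34.6 CPM at 500 mOsm. MYC was the 1 paired member of the list of immediate early genes.

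THBD, thrombomodulin, which binds thrombin on the cell surface, rose from 49.0 and 88.0 CPM with Nfat5-1-siRNA to 149 and 228 CPM with Nfat5-2-siRNA, a 2.78-fold difference (log2 1.48 ± 0.14, adjusted p = 9.17e-15). F3, tissue factor, the cell surface starter of the clotting cascade, was at 190 and 177 CPM against 388 and 418 CPM, a 2.18-fold difference (log2 1.12 ± 0.14, adjusted p = 2.59e-09) that did not pass with filterByExpr (adjusted p = 0.0659). Unlike THBD, F3 lay below Neg-siRNA at 500 mOsm with both constructs, by -2.11 with Nfat5-1-siRNA and -0.99 with Nfat5-2-siRNA, since the control cells held 572 and 1069 CPM. TM4SF1, a tetraspanin-like surface protein, was at 186 and 164 CPM against 414 and 377 CPM. It was 2.26-fold higher with adjusted p = 6.51e-10, and this call was lost with filterByExpr (adjusted p = 0.0802) and with DESeq2 and the passage block (adjusted p = 0.438), while DESeq2 without the block kept it. The log2 difference was 1.202 and 1.203 in these DESeq2 fits. CALHM1, a subunit of an ATP-releasing ion channel, was at 2.69 and 4.17 CPM against 16.6 and 10.8 CPM, a 4.08-fold difference with adjusted p = 7.13e-12.

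The other named genes of this direction serve varied functions. TTLL4, an enzyme that adds glutamate to tubulin, was at 17.4 and 24.9 CPM with Nfat5-1-siRNA and at 52.6 and 80.0 CPM with Nfat5-2-siRNA, a 3.12-fold difference with adjusted p = 1.83e-14. SYTL2, a Rab27 effector in vesicle transport, was at 63.4 and 61.6 CPM against 133 and 142 CPM, a 2.20-fold difference with adjusted p = 1.48e-10. SFN, the epithelial 14-3-3 sigma protein, was at 110 and 129 CPM against 258 and 223 CPM, a 2.02-fold difference with adjusted p = 1.06e-08. SMPD3, a neutral sphingomyelinase, was at 3.67 and 7.85 CPM against 10.8 and 13.5 CPM and had no count in the isosmotic control libraries. Its call (adjusted p = 0.00402) was lost with filterByExpr (adjusted p = 0.207), with DESeq2 and the block (adjusted p = 0.0523) and without replicate 1 of either construct (differences of 0.86 and 0.84). None of these libraries overlapped between the constructs, which also held for 46.4% of all genes tested. These genes were picked for large differences of 1 sign in both passages, so this adds no separate evidence. AKAP12, MYC, THBD, CALHM1, TTLL4, SYTL2 and SFN also passed with filterByExpr. Without the passage block in edgeR, SYTL2 alone of these passed (adjusted p = 0.0333), and the others had an adjusted p from 0.0517 to 0.155.

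**Figure D3:**
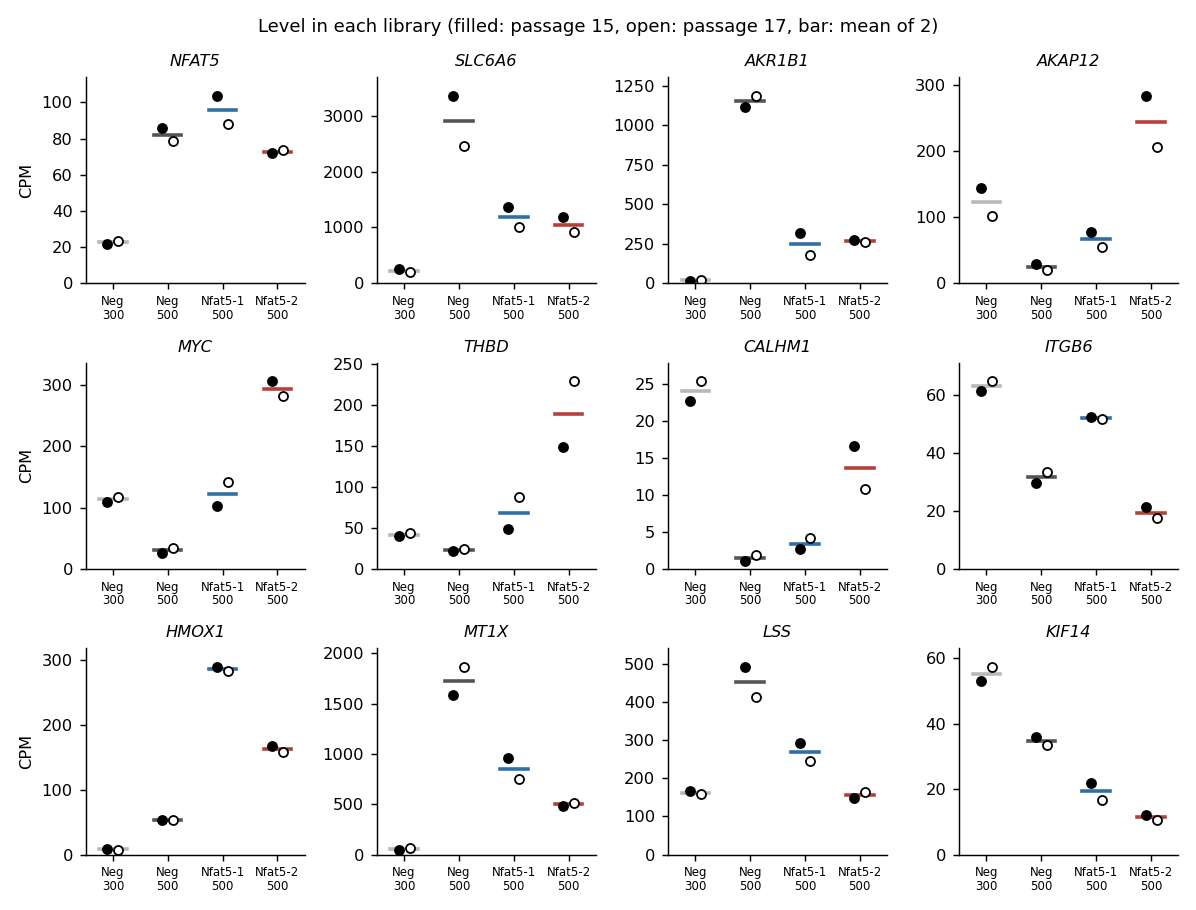
CPM in each of the 8 libraries for 12 genes, one panel per gene with its own linear axis from 0, filled circles for passage 15, open circles for passage 17 and bars for the mean of 2. NFAT5, SLC6A6 and AKR1B1 were not called between the constructs, AKAP12, MYC, THBD and CALHM1 are higher and ITGB6, HMOX1, MT1X, LSS and KIF14 are lower with Nfat5-2-siRNA.

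ITGB6, the integrin beta 6 chain of epithelial cells, which with integrin alpha v activates latent TGF-beta, was the called gene with a symbol for which the constructs departed from the control on opposite sides. It was at 52.4 and 51.8 CPM with Nfat5-1-siRNA, at 21.2 and 17.5 CPM with Nfat5-2-siRNA and at 29.6 and 33.6 CPM with Neg-siRNA at 500 mOsm. The difference between the constructs was -1.43 ± 0.15 (SE), or 2.69-fold lower, with adjusted p = 4.91e-13. Its log2 changes against Neg-siRNA at 500 mOsm were 0.72 with Nfat5-1-siRNA and -0.71 with Nfat5-2-siRNA. It passed with filterByExpr, and without the passage block its adjusted p was 0.0192.

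HMOX1, heme oxygenase 1, an inducible enzyme of heme breakdown and antioxidant defence, was raised above control by both constructs, and more so by Nfat5-1-siRNA. Its level was 9.0 and 7.8 CPM in isosmotic and 52.8 and 53.1 CPM in hyperosmotic Neg-siRNA cells, 290 and 284 CPM with Nfat5-1-siRNA and 169 and 159 CPM with Nfat5-2-siRNA. The construct difference was -0.81 ± 0.13 (1.75-fold lower, adjusted p = 7.42e-06), nearly the same in passage 15 (-0.78) and passage 17 (-0.84), and it also passed with filterByExpr (adjusted p = 0.019). STBD1, a glycogen-binding protein, was at 22.3 and 15.4 CPM with Nfat5-1-siRNA and 10.2 and 5.64 CPM with Nfat5-2-siRNA, with 12.4 and 7.46 CPM in isosmotic and 2.52 and 1.15 CPM in hyperosmotic Neg-siRNA cells. It was 2.45-fold lower with adjusted p = 4.46e-06, and passed with filterByExpr as well (adjusted p = 0.0273). DHRS3, which reduces retinal to retinol, was at 11.3 and 10.0 CPM against 4.95 and 3.93 CPM, 2.40-fold lower with adjusted p = 1.51e-05, and 388 of its 1419 exonic bases overlap another annotated gene. DHRS3 was above Neg-siRNA at 500 mOsm with both constructs and did not pass with filterByExpr (adjusted p = 0.0528).

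A second set of lower genes was already below the hyperosmotic control with Nfat5-1-siRNA and was lower still with Nfat5-2-siRNA. LGR6, a receptor for R-spondins, was at 21.3 and 17.2 CPM with Nfat5-1-siRNA and at 10.92 and 10.99 CPM with Nfat5-2-siRNA, against 35.1 and 35.5 CPM with Neg-siRNA at 500 mOsm. MAP3K8, a kinase upstream of ERK in inflammatory signalling, was at 19.3 and 14.6 CPM against 10.5 and 9.5 CPM, with 39.0 and 43.4 CPM in the control. Their construct differences were -0.82 ± 0.17 (adjusted p = 0.00251) and -0.77 ± 0.17 (adjusted p = 0.00735), and neither passed with filterByExpr or DESeq2. Both calls were lost in 3 of 4 fits that left out 1 construct library, and without Nfat5-1-siRNA replicate 1 the differences were -0.54 and -0.47.

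Metallothioneins, small cysteine-rich proteins that bind zinc and copper, formed 1 list with genes of zinc handling. Of its 4 paired members 2 were lower with Nfat5-2-siRNA and 2 were not called, beside 6.27% lower among all genes with a symbol, and the median was -0.645 beside -0.0917 over all genes with a symbol. MT1X was at 963 and 747 CPM with Nfat5-1-siRNA and at 486 and 516 CPM with Nfat5-2-siRNA, and Neg-siRNA cells held 44.1 and 66.8 CPM at 300 mOsm and 1585 and 1865 CPM at 500 mOsm. MT1E was at 87.5 and 87.7 CPM against 44.9 and 55.6 CPM. The construct differences were -0.78 ± 0.14 (adjusted p = 1.09e-04) for MT1X and -0.82 ± 0.13 (adjusted p = 1.57e-05) for MT1E. Neither passed with filterByExpr (adjusted p = 0.272 and 0.0599), and without Nfat5-1-siRNA replicate 1 both calls were lost, with differences of -0.42 for MT1X (adjusted p = 1) and -0.61 for MT1E (adjusted p = 0.153). Metallothioneins are a family of similar genes, and whether reads were split between them was not tested. MT2A had a difference of -0.51 with adjusted p = 0.0611 and SLC39A4, a zinc importer, of -0.05 with adjusted p = 1. SLC39A4 lay above the hyperosmotic Neg-siRNA level with both constructs (log2 changes of 1.147 and 1.098), while MT1X and MT1E lay below it.

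Of the 10 paired members of the list for cholesterol synthesis and uptake, genes controlled in large part by SREBP2, 2 were lower with Nfat5-2-siRNA and 8 were not called, again beside 6.27% lower. The median was -0.468 and 9 differences were negative, while 539 of all 861 genes with a symbol had a negative difference. LSS, lanosterol synthase, was at 292 and 246 CPM with Nfat5-1-siRNA and at 148 and 164 CPM with Nfat5-2-siRNA, close to the 166 and 159 CPM of isosmotic control cells and below the 492 and 413 CPM of hyperosmotic control cells. Its difference was -0.78 ± 0.13 (adjusted p = 2.63e-05), and the call was lost with filterByExpr (adjusted p = 0.0558) and without Nfat5-2-siRNA replicate 1 (difference -0.62, adjusted p = 0.0966). MVD, which completes the mevalonate pathway, was at 200 and 189 CPM against 136 and 142 CPM, with a difference of -0.49 ± 0.13 (adjusted p = 0.0491) that was lost with filterByExpr (adjusted p = 0.26) and when any 1 of the 4 libraries was left out. SQLE, CYP51A1, ACAT2, FDFT1, SC5D and DHCR7, which act at other steps of the pathway, had differences between -0.49 and -0.39 and did not pass, SQLE with adjusted p = 0.0511. SREBF1, another member of the list, had a difference of -0.10 and did not pass. INSIG1, a sterol-regulated inhibitor of the pathway, had a positive difference of 0.12 with adjusted p = 1. In the list for fatty acid synthesis none of 5 passed, with ACLY, which supplies acetyl-CoA to both pathways, at -0.50 (adjusted p = 0.054).

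The mitosis list was the largest with paired symbols, 30 of its 51 genes. Of these 4 were lower, none higher and 26 not called, beside 6.27% lower among all genes with a symbol. The median was -0.241 with 25 negative values, beside 539 negative values among the 861. KIF14, a kinesin of cytokinesis, was at 21.98 and 16.66 CPM with Nfat5-1-siRNA and at 12.2 and 10.6 CPM with Nfat5-2-siRNA, a difference of -0.76 ± 0.15 (adjusted p = 0.00172). CENPE, a kinetochore motor, was at 22.9 and 25.1 CPM against 17.2 and 14.7 CPM (adjusted p = 0.0231). KNL1, a kinetochore scaffold, was at 15.9 and 12.7 CPM against 9.47 and 9.50 CPM (adjusted p = 0.0448), and KIF11, the motor that separates the spindle poles, at 54.6 and 41.5 CPM against 37.1 and 28.4 CPM (adjusted p = 0.0202). These 4 genes were below Neg-siRNA at 500 mOsm with both constructs. None of them passed with filterByExpr (adjusted p = 0.142 to 0.437), and CENPE and KNL1 were lost whichever construct library was left out, KIF14 and KIF11 in 3 of 4 such fits. CENPE, KNL1 and KIF11 were also lost with DESeq2 and the block. Members with roles in mitotic entry did not pass, with differences of -0.41 for AURKA, -0.33 for CCNB2, -0.08 for PLK1 and 0.32 for CCNA2. Other kinesins did not pass either, such as KIF23 (-0.27), KIF20A (-0.21) and KIF2C (0.23). The same held for the kinetochore genes NDC80 (-0.24) and SPC24 (0.31). In the list for DNA replication none of 4 paired genes passed.

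**Figure D4:**
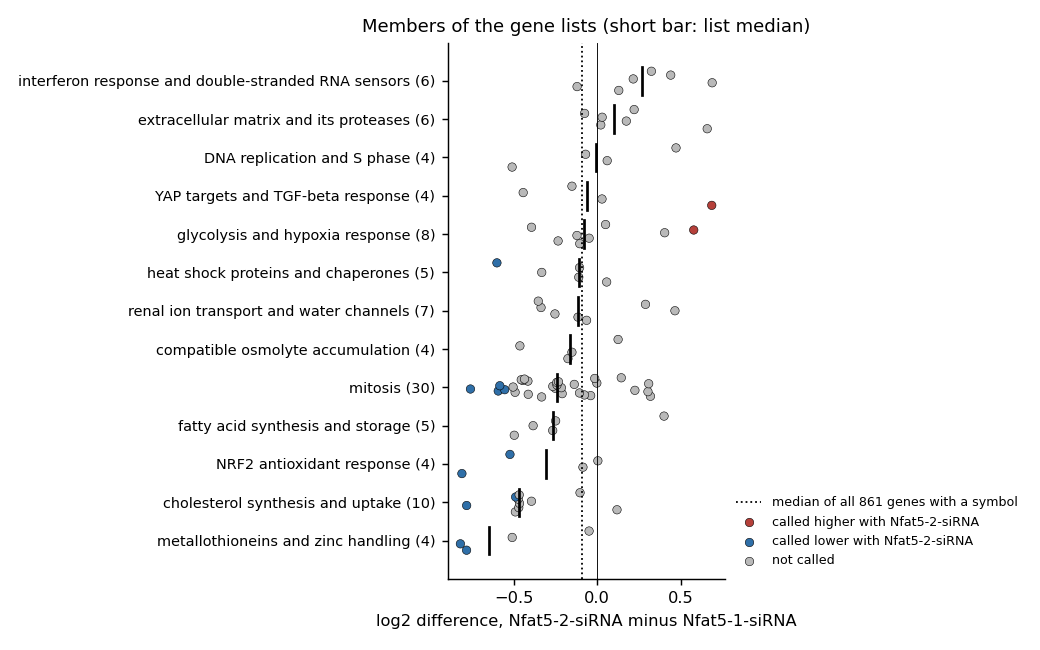
Log2 difference between the constructs for each paired member (points) of the gene lists with at least 4 paired genes, the number of which stands in parentheses. Short bars mark list medians and the dotted line the median of the 861 genes with a symbol, -0.0917. The metallothionein, cholesterol and NRF2 lists lie furthest to the left, and called members are in color.

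In the NRF2 list, genes of the oxidative stress response, 2 of 4 paired members were lower. For this and the next lists the shares over all genes with a symbol were 3.95% higher, 6.27% lower and 10.2% called, and with so few paired members a single call is near that background. Beside HMOX1 this was ME1, malic enzyme, at 408 and 274 CPM with Nfat5-1-siRNA and at 271 and 200 CPM with Nfat5-2-siRNA (difference -0.52 ± 0.13, adjusted p = 0.0248). NQO1 and TKT, further members, differed by -0.08 and 0.00 with adjusted p = 1 for both. Of 5 paired heat shock genes HSF2, a heat shock factor, was called, at 30.1 and 23.3 CPM against 18.8 and 16.4 CPM (difference -0.60 ± 0.15, adjusted p = 0.0291), while the chaperones HSPH1 and DNAJB1 differed by -0.11 each. ADM, the secreted peptide adrenomedullin, was the 1 gene called of 8 in the list for glycolysis and hypoxia, at 121 and 95.4 CPM against 154 and 169 CPM (difference 0.58 ± 0.13, adjusted p = 0.00914). AMOTL2, a junction protein that restrains YAP, was the 1 gene called of 4 in the list of YAP and TGF-beta targets, at 92.9 and 103 CPM against 168 and 147 CPM (difference 0.69 ± 0.13, adjusted p = 4.52e-04). HSF2, ADM, AMOTL2 and ME1 did not pass with filterByExpr. With 1 construct library left out the call of ME1 was lost in 4 of 4 fits, those of HSF2 and ADM in 3 and that of AMOTL2 in 2. The difference of ADM was 0.34 without Nfat5-1-siRNA replicate 2 and 0.84 without replicate 1 of that group, and HSF2 was also lost with DESeq2 and the block.

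No member passed in the lists for the interferon response and double-stranded RNA sensors (6 paired), extracellular matrix (6 paired), renal ion transport (7 paired), the unfolded protein response (3 paired), drug and organic anion transporters (3 paired), p53 targets, inflammatory mediators, tight junctions and lysosome. In the interferon list, whose genes can respond to transfected RNA, 5 of 6 differences were positive with a median of 0.27. The most abundant of these, ISG15, differed by 0.13 and the largest difference, 0.69 for IFI44L, was at 1.80 and 3.05 CPM in the means of the constructs. ITGB6 was the 1 gene called of 2 in the list for epithelial to mesenchymal transition. Mitochondrially encoded genes were grouped by chromosome, and of 37 tested 1 was called, in the lower direction, beside 4.94% of all genes tested, with a median difference of -0.07. None of the 10 markers of kidney tubule epithelium fixed for a check of the cell type was paired with an identifier, nor were those of endothelium or leukocytes. Of the fibroblast markers PDGFRA was paired, at 30.7 and 33.7 CPM with Nfat5-1-siRNA and at 27.82 and 34.01 CPM with Nfat5-2-siRNA (difference -0.06, adjusted p = 1).

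Of the genes without a symbol, those with the largest differences in each direction by the naming rule are given here. ENSCAFG00000030616 was at 0.45 and 0.53 CPM with Nfat5-1-siRNA and at 24.8 and 4.36 CPM with Nfat5-2-siRNA, and ENSCAFG00000028460 at 0.62 and 0.32 CPM against 16.4 and 4.29 CPM. Both lie on unplaced scaffolds, and 1148 of 1178 exonic bases of the first overlap another annotated gene. Their Neg-siRNA levels also differed between passages, with 10.6 and 0.83 CPM at 500 mOsm for the first and 4.53 and 1.03 CPM for the second. In the other direction ENSCAFG00000013653 on chromosome 6 (chr6:7662680-7666484) was at 15.6 and 37.8 CPM with Nfat5-1-siRNA and at 4.66 and 3.36 CPM with Nfat5-2-siRNA. ENSCAFG00000012319 on chromosome 5 (chr5:14867920-14870357) was at 15.9 and 41.4 CPM against 4.78 and 9.73 CPM. The log2 differences of these 4 genes were 4.52, 4.31, -2.62 and -1.94. With 1 library left out they ranged from 2.81 to 5.98, from 3.89 to 4.59, from -3.23 to -2.02 and from -2.37 to -1.35, and they were called in each of these fits. ENSCAFG00000012319 did not pass with filterByExpr (adjusted p = 0.0539) or with DESeq2 and the block (adjusted p = 0.0749), and without the block none of the 4 passed in edgeR (adjusted p = 0.0517 to 0.766). The value of 2.81 came without Nfat5-1-siRNA replicate 1, and those of 5.98, -2.02 and -1.35 without Nfat5-1-siRNA replicate 2. The libraries of the constructs did not overlap for any of them, as for 46.4% of all genes tested, and the genes were picked for large differences.

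The called genes differed in gene structure. Among genes averaging 1 CPM or more, 53 of 442 higher genes (12%) and 9 of 502 lower genes (1.79%) were annotated with a single exon, against 6.49% of all 12424. The median number of annotated exon rows was 6 for the higher and 15 for the lower genes, against 10, and the median exonic length was 2410.5 and 3521 bases, against 2296. The median abundance was 16.7 CPM for the higher and 67.2 CPM for the lower genes, against 32.0 CPM. Single-exon genes took 6.19% and 6.33% of the counts with Nfat5-1-siRNA and 6.52% and 6.82% with Nfat5-2-siRNA, and their part in the result was not tested.

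Response to osmolality was compared in the Neg-siRNA libraries, which do not enter the construct difference except through the shared estimate of the spread and of the passage effect. Of all tested genes 17.3% rose and 15.7% fell from 300 to 500 mOsm. Of the 12424 genes averaging 1 CPM or more, 25.2% rose and 23.7% fell. Of the 944 called between the constructs at this level, 30.3% rose and 33.2% fell. Of the 442 called higher with Nfat5-2-siRNA at this level 26.7% rose and 38.9% fell, and of the 502 called lower 33.5% rose and 28.1% fell. Among called genes of any level without a symbol, 26.1% of the higher genes rose and 33.6% fell, and 29.7% of the lower genes rose and 27.3% fell. Among all tested genes without a symbol 15.6% rose and 14.4% fell, a background that includes genes averaging under 1 CPM. In the 138 genes called with filterByExpr 27 of 81 higher genes rose and 27 fell, and 15 of 57 lower genes rose and 24 fell; the difference from the full set was not tested. AKAP12, MYC and CALHM1 fell with osmolality in control cells, by -2.34, -1.92 and -3.98 log2 units, and F3 rose by 1.71.

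**Figure D5:**
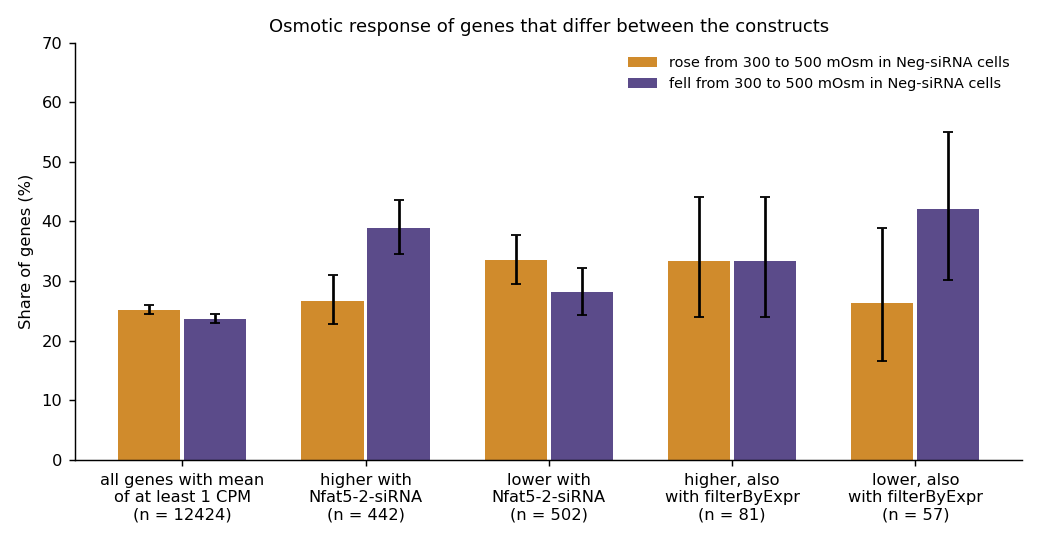
Share of genes (%) that rose or fell from 300 to 500 mOsm in Neg-siRNA cells, for all genes averaging 1 CPM or more, for the genes of that level called higher or lower with Nfat5-2-siRNA and for those also called with filterByExpr, with n under each set. Bars start at 0 and lines are 95% Wilson intervals, which treat genes as independent. Of the higher genes 38.9% fell, and of the 81 that also passed with filterByExpr 33.3% fell and 33.3% rose.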

How the data were processed

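Poly(A) RNA of 8 MDCK I libraries was sequenced in paired reads. The authors aligned the reads with HISAT2 2.0.5 to CanFam3.1 and deposited a table of counts per gene made with featureCounts 1.5.1 and Ensembl release 92, unstranded. All 8 columns were used (0 left out), with TMM scaling. Genes with 5 or more counts over all libraries were fitted in edgeR 4.0.16 (quasi-likelihood test, R 4.3.3) with group and passage as terms, and p-values were adjusted by Benjamini-Yekutieli with a threshold of 0.05, the study's filter and adjustment. DESeq2 1.42.0 was an alternative. The study itself tested with DESeq2, and its methods state no passage term. The SE is the log2 difference divided by the square root of the F statistic. Samples with the same replicate number came from the same passage per the labels, and their deviations correlated between groups with r from 0.123 to 0.465 in every pair of groups. The libraries are separate passages of 1 line, and the fit removes the mean difference between the passages. The p-values therefore measure the spread left after group and passage, with an estimate of spread that is shared in part across genes. The fitting functions were tested on simulated data in which every gene had the same dispersion. That check cannot decide between the counts of calls under the different settings. The members and lists were chosen with earlier results of these data known. Named genes were the 12 largest differences in each direction among called genes of 1 sign in the 2 passages that averaged 10 CPM or more in the higher group (at most 2 without a symbol), up to 4 called members of each list, the most abundant paired gene of each marker list, and NFAT5, SLC6A6, SLC6A12, SLC5A3, AKR1B1, TMEM184B, HMOX1 and SLC22A6, the last not paired with an identifier and not analysed here; 1 gene that this rule names is not reported here. Symbols for 860 identifiers were taken from the study's gene list. That list's fold changes and p-values, which hold the authors' comparisons, were not used.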

Additional observations from a re-analysis of the deposited data

Results flagged for a closer look

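ITGB6 lay on opposite sides of Neg-siRNA at 500 mOsm with the constructs, which differed by -1.43 on the log2 scale. The same held for ENSCAFG00000030616 (4.52), ENSCAFG00000028460 (4.31) and ENSCAFG00000013653 (-2.62), which were chosen for their large differences, and 19 called genes in all passed against Neg-siRNA with each construct in opposite directions. Both comparisons share the control libraries. The construct difference of SLC6A12 was -0.48 in passage 15 and 0.27 in passage 17, that of AKR1B1 was -0.21 and 0.55, and that of PDGFRA was -0.14 and 0.013. Each passage holds 1 library of a construct, so whether the difference depends on the passage was not tested.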

How the results depend on the processing

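At the Benjamini-Yekutieli threshold both the passage block and the low-count filter moved most calls. With no replicate block 8 genes were called (6 higher, 2 lower; 1 in the gene lists), though 2957 genes had an unadjusted p under 0.05 against 4401 with it. With no replicate block and the Benjamini-Hochberg adjustment, chosen after seeing the data, 186 passed (113 and 73; 5 in the lists), and with DESeq2 and no replicate block 188 (118 and 70; 5). Of 29 named genes called with a symbol, SYTL2 and ITGB6 passed with no replicate block, and the smallest adjusted p among the others was 0.0517.

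filterByExpr called 138 genes (81 and 57; 3 in the lists) and kept 10 of the 29, while with the Benjamini-Hochberg adjustment, added after seeing the data, it called 1246 (547 and 699), 878 of them among the 979; the prior degrees of freedom fell from 107.7 to 8.96, as they did to 9.19 with no replicate block. DESeq2 with the block called 608 (288 and 320) and kept 21. The 4 libraries alone gave 128 (96 and 32, with 2 in the lists) and kept 9 of the 29. HMOX1, STBD1 and CALHM1, which passed with filterByExpr, lost their calls there, with differences of -0.76, -1.24 and 2.04. The Benjamini-Hochberg adjustment gave 2210 (932 and 1278, with 40 in the lists), including NFAT5. DESeq2 size factors and no filter on low counts stayed within 1.5 times of each count. With DESeq2 size factors in edgeR 27 of the 29 stayed called. MVD (difference -0.46) and KNL1 (difference -0.56) lost their calls there. The 33 named differences that were called kept their direction in every setting run.

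Leaving out 1 library gave 351 to 785 calls, 178 to 459 higher and 173 to 326 lower, and 6 to 13 in the lists. The lowest, 351, came without Nfat5-2-siRNA replicate 1, where 323 of the 979 genes remained; 457 were called without Nfat5-1-siRNA replicate 1 and 549 without Nfat5-1-siRNA replicate 2. SLC6A12 turned from -0.15 to 0.41 without Nfat5-1-siRNA replicate 1 and passed at -0.61 without replicate 2 of that group. With 1 library left out AKR1B1 ranged from -0.30 to 0.64, TMEM184B from -0.048 to 0.12 and PDGFRA from -0.28 to 0.14; they turned sign without Nfat5-1-siRNA replicate 2, and the latter 2 also without Nfat5-2-siRNA replicate 1 (-0.019 and 0.14). The cause was not tested. The lone library of a group is then assumed to vary like the others.

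The share of called genes with an osmotic change was 62.1%, against 33.1% of all tested genes. With no replicate block it was 75% of only 8 called genes, against 20.6%. Benjamini-Hochberg gave 68.9% against 43.4%, and filterByExpr with Benjamini-Hochberg (added after seeing the data) 68% against 54.9%. With 1 library left out it was 64.1% to 68.1%, against 33.6% to 35.2%. These backgrounds include genes of low counts, while 944 of the 979 called genes averaged 1 CPM or more. At that level 30.3% of called genes rose and 33.2% fell, against 25.2% and 23.7% of all 12424. Each construct had 2 libraries, with totals of 37488252 to 46043788 counts. The smallest difference that could be called for genes of low counts was not tested, so an absent call does not show equal levels.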

Other observations

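Several called genes with a symbol fell outside the rule for named genes and were picked after their values were seen. KRT80, an epithelial keratin, was at 1.73 above Neg-siRNA at 500 mOsm with Nfat5-2-siRNA and at 0.87 with Nfat5-1-siRNA on the log2 scale, a construct difference of 0.86 (adjusted p = 1.36e-06, edgeR) that also passed with filterByExpr. KRT5, a keratin of basal epithelial cells, had a construct difference of 0.74 (adjusted p = 1.28e-04) and did not pass with filterByExpr. The chromosome 27 interval whose ends were set by KRT5 and KRT80 (chr27:2567144-2883787) held 11 tested genes, 3 called higher and 1 lower. The higher calls include KRT5 and KRT80 themselves, which were picked because they were called. The counts can therefore not be set against the shares over all tested genes, 2.39% and 2.55%. Whether calls gather in the interval was not tested. WNT7B, a secreted Wnt ligand, and FZD5, a Wnt receptor, had differences of 0.57 (adjusted p = 0.0439) and 0.94 (adjusted p = 0.0426), and neither passed with filterByExpr.

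On chromosome 36, 18 of 96 genes averaging 1 CPM or more were called, 13 of them lower, or 18.8% against 7.60% of all such genes. Whether calls are unevenly spread over chromosomes was not tested. With filterByExpr 2 of these 18 genes were called. The next was chromosome 37 with 11.9%.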
